A study of Mus musculus with 4 samples.

Results

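G protein-coupled receptor genes were examined in a table of m6A peaks from mouse cerebral cortex. The members were all rows whose gene symbol begins with Gpr, Htr, Chrm, Grm, Adra, Adrb, Gabbr or Npy followed by a number, with Adgr followed by a letter, or with Oprk, Oprm or Oprd, leaving out the myelin lineage receptor Gpr17. They came to 344 peaks in 93 genes, out of 33977 peaks in 10415 genes. By family these were 7 metabotropic glutamate, 2 GABA-B, 4 muscarinic, 11 serotonin, 9 adrenergic, 3 opioid, 2 neuropeptide Y, 41 orphan Gpr and 14 adhesion receptor genes. The symbols also took in Gpr89, Gpr107, Gpr137, Gpr137c and Gpr180, 5 genes whose proteins are not classical receptors of this class, and the ion channel genes of the Htr3 type had no row. Because peaks were called in each condition and stacked, the 344 rows formed 211 separate regions, and overlapping rows share reads.

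N6-methyladenosine (m6A) is a methyl mark on RNA, and the series measured it by pulling down RNA fragments with an antibody against it and sequencing them. Per the labels, TRIzol total RNA came from the cortex of mice given a sham procedure (2 libraries) or a traumatic brain injury (2 libraries), which the series title specifies as repetitive and mild (rmTBI), and all 4 libraries carry the anti-m6A antibody. In each group the labels give 1 library the number 0 and the other the number 1, without saying what the numbers mean or whether separate mice were used. P-values therefore reflect the spread of these libraries alone, and that spread may be technical. The fold changes the authors deposited track library 1 over library 0 within each group (values at the end), so 0 and 1 may be different kinds of library and not replicates. In that case the group means, SEs and p-values given here would combine unlike libraries, and for this reason the value of each library is printed. No source used here gives the strain, the age, the injury protocol or the time after it. With antibody libraries alone, methylation and abundance of a transcript cannot be told apart, and in bulk tissue neither can fewer cells of a type and less RNA per cell.

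G protein-coupled receptors cross the membrane several times and, once a ligand binds, activate heterotrimeric G proteins inside the cell. Gs proteins raise cyclic AMP, Gi/o proteins lower it and open potassium channels, and Gq proteins release calcium through phospholipase C. In the cortex they carry the slower actions of glutamate and GABA and the modulatory actions of acetylcholine, serotonin, noradrenaline and neuropeptides, and adhesion receptors of the class take part in synapse formation.

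The sequences under these peaks could be read only where a RefSeq transcript start (GRCm38.p6 promoter table, which held 68 of the 93 genes) lay inside a peak under 1000 bases. This was so for 6 receptor genes, and the first 30 bases of one transcript of each are shown as the starts that these peaks cover. The peaks are longer than 30 bases, and where in a peak the antibody signal lies was not resolved. The motif GGACT, a common form of the m6A consensus, is in capitals.
Adgrb2 (chr4:129984870-129984899, plus strand): actcggcccggcgcgcgctgcgggcagcgg
Chrm3 (chr13:10360774-10360803, minus strand): acttggagcgccttctgtctgcttttggag
Gpr137 (chr19:6941164-6941193, minus strand): gagcaaccaaggccagGGACTctgtgccac
Grm8 (chr6:28134392-28134421, minus strand): aggatgctctaacagggcgagcggcagcag
Htr1a (chr13:105443693-105443722, plus strand): gagaaggaaaggggaactggaagggaaggc
Htr6 (chr4:139074760-139074789, minus strand): cctgtcctggtcctcaaccctagtccccat
GGACT stood in the sense direction in the Gpr137 window and in none of the other 5 shown. Another Gpr137 start, inside its rmTBI-set peak and not shown, did not hold it. The promoter table held 92 windows of receptor genes, whether or not a peak covered them. Of these, 5 (5.43%) held GGACT in sense and 2.17% in antisense. Of 32851 windows of all RefSeq genes 3.11% and 2.81% did. The shares rest on few receptor windows, and their difference was not tested. A match is a description of letters and not a methylated site, and the windows cover only the first bases of each transcript.

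The counts over all peaks were 14437317 and 26356562 in sham libraries 0 and 1 and 13753600 and 26888072 in rmTBI libraries 0 and 1. Levels are given as CPM, the counts at a peak scaled to a common library size, with TMM scaling. Of the 344 receptor peaks, 336 in 90 genes held enough counts to be tested. The 3 genes without a tested peak were Htr5b, Adgrg6 and Adgrv1. Each gene is described at its main peak, the tested row with the highest mean CPM over all 4 libraries. For 16 genes the main peak also overlaps another RefSeq gene, among them Chrm3, Grm5, Htr1b, Gpr39 and Gpr162, and 11 rows of Adgrl3, Gpr39, Gpr146, Gpr25 and Htr1b lie on the strand opposite to the receptor in RefSeq. No source used here says whether reads were counted by strand, so these values are uncertain.

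The comparison of rmTBI with sham asks which receptor transcripts gave a different antibody signal after injury. With group alone in the model, no receptor peak passed the test. After Benjamini-Hochberg adjustment over all peaks, edgeR's quasi-likelihood F-test called 0 of 336, against 0.0868% of all peaks. The smallest adjusted p was 0.352, at Gpr151. DESeq2 called 1 (0.298%, against 0.416% of all peaks), the same Gpr151 peak (adjusted p = 0.0202). In edgeR fits with a library left out, the log2 of this peak was -3.16 without sham library 0 and -3.53 without rmTBI library 1. Without sham library 1 it was -2.41, and without rmTBI library 0 it was -2.53. With the label number as a block, a pairing the labels do not state, edgeR called 60 receptor peaks (17.9%, against 10.6% of all peaks). With group alone in the model, 17 receptor peaks in 9 genes reached an unadjusted p under 0.05. Of these, 16 were lower in rmTBI (4.76%, against 2.11% of all peaks) and 1, at Adra1a, was higher (0.298%, against 0.73% of all peaks). Without sham library 1 only 4 of 14 such peaks were lower, and DESeq2 gave 9 lower of 10.

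Levels in the groups did not overlap at 93 receptor peaks. Both rmTBI libraries lay below both sham libraries at 59 peaks (17.6%, against 12.3% of all peaks) and above them at 34 (10.1%, against 12.3%). Over the 90 main peaks, 19 genes were lower in both rmTBI libraries (21.1%, against 12.3% of all genes) and 6 were higher in both (6.67%, against 10.8%). At an unadjusted p under 0.05, 5 genes were lower at their main peak (5.56%, against 2.27% of all genes) and 1 was higher (1.11%, against 0.715%). The middle of the distribution was near 0: the median log2 fold change was -0.04 over the receptor genes and 0.01 over all genes, with 44 receptor genes above 0 and 46 below. The sign of that median was not stable, since it was 0.07 without sham library 1, 0.02 without rmTBI library 0, -0.15 without sham library 0 and -0.16 without rmTBI library 1.

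**Figure D1:**
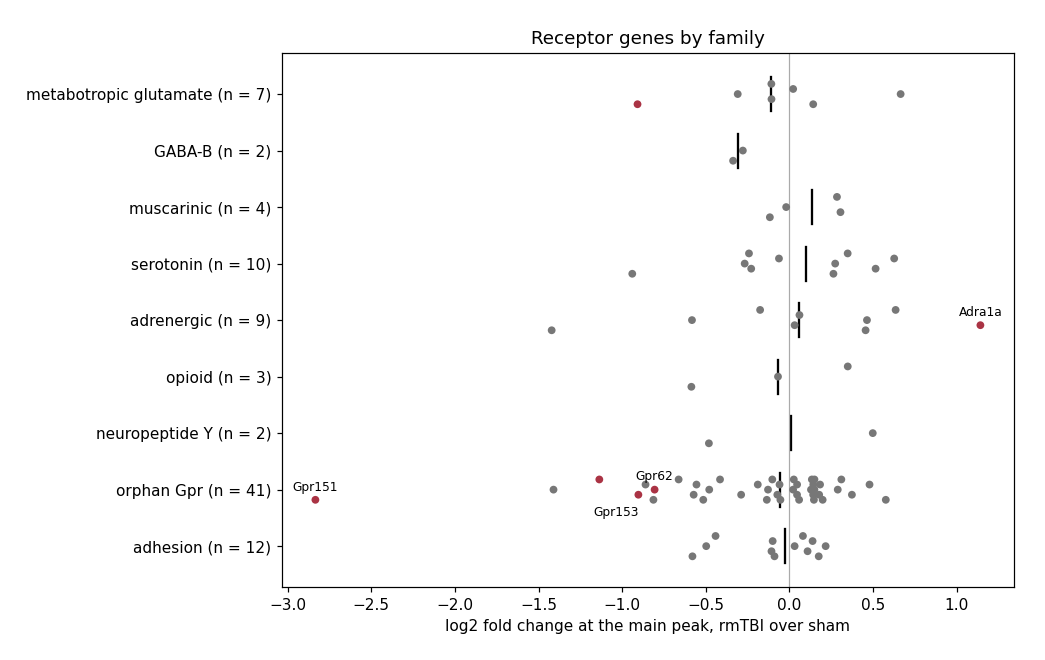
Each point is 1 receptor gene at its main peak, by family, with the log2 fold change of rmTBI over sham on the x axis, a black bar at the family median and red points for an unadjusted edgeR p under 0.05, some of them labelled. Of the 6 red points, 5 lie left of 0, among them Gpr151, Gpr153 and Gpr62, and Adra1a lies right of it, while the family medians lie between -0.31 and 0.13.

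Among the metabotropic glutamate receptors, which carry the slower actions of glutamate, values are given for 6 genes. Grm5 encodes mGluR5, a Gq-coupled receptor that is prominent in cortical neurons. Its main peak, a coding row spanning 54936 bases with introns, held 575.6 and 395.0 CPM in sham and 634.8 and 436.2 CPM in rmTBI (log2 0.14, SE 0.27). The groups overlapped, and the gap between libraries 0 and 1 was larger than the gap between groups. Within the libraries numbered 0 and 1 the log2 of Grm5 was 0.14 in each. Grm8 encodes mGluR8, a presynaptic Gi/o-coupled receptor. The peak at its transcript start, whose first bases are given above, held 1.93 and 3.15 CPM in sham and 4.02 and 4.17 CPM in rmTBI. Both rmTBI libraries were higher (log2 0.66, SE 0.35, unadjusted p = 0.0956), and all 4 tested Grm8 peaks were above 0. The presynaptic or glial Gi/o-coupled receptors Grm2, Grm3, Grm4 and Grm7 had log2 values of -0.31, 0.02, -0.11 and -0.11.

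The GABA-B receptor is an obligate pair of the Gabbr1 and Gabbr2 proteins, in which the first binds GABA and the second couples to Gi/o. Gabbr1 had 123.5 and 156.4 CPM in sham and 93.8 and 127.8 CPM in rmTBI at a 3′ UTR peak of 510 bases (log2 -0.34, SE 0.26). The groups overlapped narrowly, and within the libraries numbered 0 and 1 its log2 was -0.40 and -0.29. Gabbr2 had 403.3 and 362.6 CPM in sham and 346.1 and 285.3 CPM in rmTBI (log2 -0.28, SE 0.22), with both rmTBI libraries below both sham libraries. The unadjusted p was 0.236 for Gabbr1 and 0.234 for Gabbr2. The 4 tested peaks of Gabbr2 were all below 0 (-0.28 to -0.21), and those of Gabbr1 were split, 2 above and 2 below.

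The muscarinic receptors bind acetylcholine, with Chrm1 and Chrm3 coupled to Gq and Chrm2 and Chrm4 to Gi/o. Chrm1, the main muscarinic receptor of cortical pyramidal cells, had the most rows of any receptor gene, 11. At its main coding peak it held 22.8 and 19.2 CPM in sham and 27.4 and 24.5 CPM in rmTBI. The rmTBI libraries were both higher (log2 0.31, SE 0.25, unadjusted p = 0.264), and 10 of 11 Chrm1 peaks were above 0. Chrm3, at the peak over its transcript start given above, held 17.3 and 29.8 CPM in sham and 20.9 and 36.4 CPM in rmTBI (log2 0.28, SE 0.37). Its groups overlapped, and all 8 of its peaks were above 0, at 0.14 to 0.40. Chrm2 and Chrm4 had log2 values of -0.02 and -0.12, and 7 of the 8 Chrm2 peaks were below 0.

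Serotonin receptors were split evenly, with 5 genes above 0 and 5 below. Htr1f encodes a Gi/o-coupled receptor that is the target of the migraine drug lasmiditan. It held 3.28 and 3.33 CPM in sham and 3.41 and 6.62 CPM in rmTBI (log2 0.63, SE 0.37), so the groups separated only narrowly and rmTBI library 1 stood apart. Htr2c, a Gq-coupled receptor whose transcript is known for A-to-I editing and for high levels in choroid plexus, held 17.0 and 19.7 CPM in sham and 15.3 and 15.3 CPM in rmTBI (log2 -0.27, SE 0.25). Both of its peaks were lower in both rmTBI libraries. Htr1b, a Gi/o-coupled autoreceptor on serotonin terminals, held 4.49 and 4.72 CPM in sham and 3.87 and 3.99 CPM in rmTBI (log2 -0.23, SE 0.28), and 9 of its 10 rows were below 0.

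Htr1a encodes the main inhibitory serotonin receptor of cortical and raphe neurons. At the coding peak over its start it held 5.63 and 8.56 CPM in sham and 8.26 and 9.89 CPM in rmTBI (log2 0.35, SE 0.30), and the groups overlapped. The remaining log2 values were -0.94 for Htr1d (SE 0.78), 0.27 for Htr2a, -0.06 for Htr4, 0.52 for Htr5a (SE 0.51), 0.26 for Htr6 and -0.24 for Htr7. None of the 10 tested serotonin receptor genes reached an unadjusted p of 0.05 at its main peak. For Htr2a, Htr4 and Htr5a library 1 was well above library 0 in both groups, with 6.84 and 16.0 CPM for Htr5a in sham and 9.40 and 23.3 CPM in rmTBI.

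Adrenergic receptors bind noradrenaline and adrenaline. Adra1a, which encodes the Gq-coupled alpha-1A receptor, was the receptor gene with the smallest p among those higher in rmTBI. Its main peak, in the 3′ UTR on chromosome 14 (66727941 to 66728270), held 1.85 and 2.23 CPM in sham libraries 0 and 1 and 4.78 and 4.35 CPM in rmTBI libraries 0 and 1. Both rmTBI libraries were well above both sham libraries. The log2 fold change was 1.14 (SE 0.32), with an unadjusted p of 0.00774 and an adjusted p of 0.874 (edgeR with Benjamini-Hochberg adjustment), and it was 1.37 and 0.96 within the libraries numbered 0 and 1. These are 26, 61, 63 and 121 counts, so the level is low. The pair of overlapping peaks in its 5′ UTR pointed the same way, at 0.82 and 0.76, and the coding peaks were close to 0 with log2 values of 0.19 and 0.30 (SE 0.45 and 0.47).

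The other alpha-1 genes lay below 0: Adra1b had a log2 value of -0.58 (SE 0.37) and Adra1d of -0.18 (SE 0.44). Of the Gi/o-coupled alpha-2 genes, Adra2a stood at 0.46, Adra2c at 0.06 and Adra2b at -1.42 (SE 0.94), the last on only 9, 23, 7 and 3 counts. The beta receptors raise cyclic AMP through Gs. Adrb1, the main cortical beta receptor, held 11.3 and 17.0 CPM in sham and 13.4 and 15.6 CPM in rmTBI (log2 0.03, SE 0.29). Adrb3 stood at 0.64 (SE 0.68), with sham library 0 alone at 5 counts.

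The opioid receptors are Gi/o-coupled. The delta receptor gene Oprd1, with 1.57 and 2.05 CPM in sham and 3.03 and 1.73 CPM in rmTBI, had a log2 value of 0.35 (SE 0.45). The kappa receptor gene Oprk1 stood at -0.07 (SE 0.44) and the mu receptor gene Oprm1 at -0.59 (SE 0.58). For each of the 3 genes the groups overlapped. Of the neuropeptide Y receptors, Npy1r stood at 0.50 (SE 0.64) on 7 to 35 counts a library and Npy2r at -0.48 (SE 0.39). All 3 peaks of Npy2r, a presynaptic receptor, were below 0, with 6.49 and 9.55 CPM in sham and 3.64 and 7.70 CPM in rmTBI at the main one, and its groups overlapped.

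The orphan receptors held the largest difference of the 90 main peaks, at Gpr151, and 4 of the 5 genes that were lower at an unadjusted p under 0.05. Gpr151 encodes a receptor known from habenula neurons. Its main 3′ UTR peak held 2.00 and 3.33 CPM in sham and 0.227 and 0.468 CPM in rmTBI, from 28, 91, 3 and 13 counts. Both rmTBI libraries were far below both sham libraries. The log2 fold change was -2.84 (SE 0.58, adjusted p = 0.352 by edgeR with Benjamini-Hochberg adjustment), and within the libraries numbered 0 and 1 it was -3.13 and -2.83. Its coding peak, at 1.21 and 0.732 CPM in sham and 0.303 and 0.576 CPM in rmTBI, had a log2 value of -1.03 (SE 0.72).

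Gpr37 and Gpr62 are both known from oligodendrocytes, the myelin-forming cells. At its main coding peak on chromosome 6 (25688337 to 25689055), Gpr37 held 31.9 and 24.2 CPM in sham and 21.0 and 14.5 CPM in rmTBI (log2 -0.66, SE 0.30, unadjusted p = 0.0573). All 8 Gpr37 peaks, in both UTRs and in coding sequence, were lower in both rmTBI libraries, with log2 values from -0.82 to -0.65. Gpr62, in its 3′ UTR (chromosome 9, 106464021 to 106464501), held 6.27 and 7.10 CPM in sham and 2.80 and 4.71 CPM in rmTBI (log2 -0.81, SE 0.33, unadjusted p = 0.0402). All 4 Gpr62 peaks were lower in both rmTBI libraries, from -0.83 to -0.58. Gpr37l1, the astrocyte-enriched relative of Gpr37, overlapped between groups with 21.6 and 16.8 CPM in sham and 17.4 and 14.1 CPM in rmTBI (log2 -0.29, SE 0.27). It was named after its values were seen.

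Gpr153, an orphan receptor gene, held 3.85 and 4.06 CPM in sham and 2.50 and 1.80 CPM in rmTBI at a 3′ UTR peak (log2 -0.90, SE 0.34, unadjusted p = 0.0307). Gpr182, known from endothelium, held 1.07 and 1.28 CPM in sham and 0.455 and 0.432 CPM in rmTBI at a coding row of 715 bases (log2 -1.41, SE 0.63), on 15, 35, 6 and 12 counts. Its other coding region pointed the opposite way (log2 0.90, SE 0.66).

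Among orphan genes higher in both rmTBI libraries, Gpr27, an intronless receptor gene of the brain, held 23.7 and 25.5 CPM in sham and 29.6 and 30.5 CPM in rmTBI (log2 0.29, SE 0.24). Gpr162 stood at 0.13 (SE 0.25). Gpr26, at a 5′ UTR peak, held 31.7 and 54.3 CPM in sham and 48.5 and 71.3 CPM in rmTBI (log2 0.48, SE 0.34). Its groups overlapped, and within the libraries numbered 0 and 1 its log2 was 0.62 and 0.39. All 5 Gpr26 peaks were above 0, at 0.36 to 0.53. Gpr39, a zinc-sensing receptor with 8 rows, stood at 0.15 (SE 0.23), but its main row spans 194657 bases and overlaps Lypd1. Gpr158 and Gpr101, named after their values were seen, lay below 0 at all 8 and all 4 of their peaks, by small amounts (-0.27 to -0.12 and -0.50 to -0.35).

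**Figure D2:**
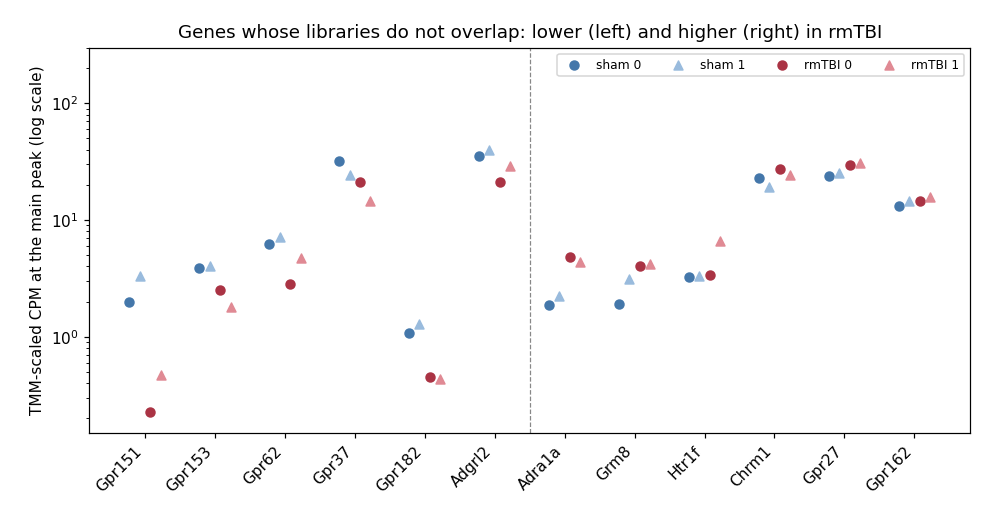
TMM-scaled CPM at the main peak in each of the 4 libraries, on a log axis, for 6 genes with small p-values among those lower in both rmTBI libraries (left of the dashed line) and for the 6 genes higher in both (right). Gpr151 shows the widest gap, and Htr1f and Gpr162 show groups that barely separate.

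The adhesion receptors have long extracellular parts that bind other cells and matrix. Adgrl2 encodes latrophilin-2, a postsynaptic receptor. It held 35.7 and 39.7 CPM in sham and 21.2 and 29.2 CPM in rmTBI at a coding peak (log2 -0.58, SE 0.27, unadjusted p = 0.0664), and its 5 peaks were all below 0. Adgrf5, a receptor of vascular endothelium, held 26.5 and 24.8 CPM in sham and 16.4 and 19.8 CPM in rmTBI at a 3′ UTR peak (log2 -0.50, SE 0.25), and its 5 peaks were also all below 0, at -0.97 to -0.44. Both genes had both rmTBI libraries below both sham libraries at the main peak.

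The other latrophilins lay near 0. Adgrl1 stood at 0.03 (SE 0.26), and Adgrl3 at 0.18 (SE 0.25), with all 10 of its rows above 0 and none separating the groups. The brain angiogenesis inhibitor genes Adgrb1, Adgrb2 and Adgrb3 stood at -0.11, 0.22 and 0.08, and the genes that complete these subfamilies were named after their values were seen. At the 5′ UTR peak of Adgrb2, over the start shown above, sham libraries held 6.77 and 7.57 CPM and rmTBI libraries 8.87 and 11.7 CPM (log2 0.52, SE 0.27). Adgra1, named after its values were seen, held 135.3 and 185.5 CPM in sham and 102.3 and 133.9 CPM in rmTBI (log2 -0.44, SE 0.27), with both rmTBI libraries lower.

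The peaks of a gene were also compared with one another. Of 53 receptor genes with at least 3 tested peaks, 14 had every peak below 0, 18 had every peak above 0 and 21 were mixed. Rows of a gene overlap and come from the same transcripts and libraries, so these counts describe genes and are no test. Gpr37 and Gpr62 were among the genes in which every peak was lower in both rmTBI libraries. Gpr137, named after its values were seen, had a coding peak of 2.57 and 2.82 CPM in sham and 1.36 and 0.504 CPM in rmTBI (log2 -1.62, SE 0.56). Its 5′ UTR peaks, over a start that contains GGACT, lay at -0.14 and -0.13, and the difference between the peaks was not tested. The 5′ end of Gpr137 overlaps the gene Bad.

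**Figure D3:**
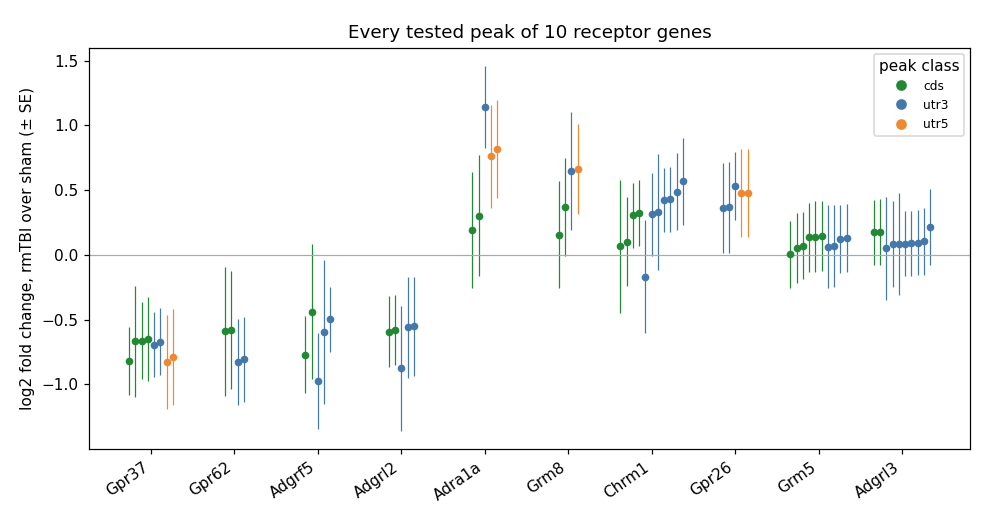
Log2 fold change of rmTBI over sham with its SE at every tested peak of 10 receptor genes, coloured by the authors' peak class. The 8 peaks of Gpr37 and 4 of Gpr62 all lie below 0, and Adra1a is highest at its UTR peaks.

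Grouped by the G protein they use, the receptors fell on both sides of 0. Of 8 tested Gs-coupled genes 4 were above 0 and 4 below (median log2 -0.02), and of 22 Gi/o-coupled genes 9 were above and 13 below (median -0.09). Of 9 Gq-coupled genes 5 were above 0 and 4 below (median 0.14), with Adra1a the highest. The median over all genes was 0.01.

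Genes that work with the receptors were looked at from lists of the pathway, and edgeR after adjustment called 0 genes in each list at the main peak. The counts that follow are at an unadjusted p under 0.05, against 0.715% of all genes higher and 2.27% lower. Of 50 other tested receptor genes of the class, 3 were higher and 6 lower. The dopamine receptor Drd2 (log2 -1.32, SE 0.27), the adenosine receptor Adora2a (-1.35, SE 0.27) and the thrombin receptor F2r (-1.90, SE 0.35) were among the lower ones. The relaxin receptor Rxfp1 (1.11, SE 0.38), the cholecystokinin receptor Cckbr (0.76, SE 0.29) and the histamine receptor Hrh1 (0.67, SE 0.28) were the higher ones. Among 19 regulators, which shut receptor signals off, 5 were lower and 0 higher. These were the RGS genes Rgs16 (12.5 and 17.0 CPM in sham, 1.06 and 2.27 CPM in rmTBI, log2 -3.08, SE 0.39), Rgs3 (-1.84), Rgs9 (-0.97), Rgs8 (-0.95) and Rgs4 (-0.68).

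The same threshold, an unadjusted edgeR p under 0.05, was used for the remaining lists. Among 20 adenylyl cyclases and phosphodiesterases, which make and break down cyclic nucleotides, Pde1a was higher (log2 0.77). Pde10a, Pde7b and Adcy5 were lower (-0.99, -0.71 and -0.65). Of 16 G protein subunits only Gng11 was lower at that threshold (-1.02), and of 16 receptor partners only C1ql2 (-1.79). Of 2 peptide ligands the enkephalin precursor Penk was lower (-0.85). In each of these lists 0 genes were higher at that threshold. Medians were near 0 for the other receptors (-0.03), the subunits (0.09), the cyclases and phosphodiesterases (0.03) and the partners (0.04), and lower for the regulators (-0.14).

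Marker genes of several brain regions and cell types differed between the groups. The thalamic markers were all lower, 10 of 10 tested (11 listed), with a median log2 of -2.24 and a summed level of 638.0 to 640.1 CPM in sham and 153.6 to 171.7 CPM in rmTBI, and edgeR called 5 of them after adjustment. Of the striatal markers 8 of 9 tested (11 listed) were lower, with a median of -0.97 and sums of 1330 to 1411 CPM in sham and 736.3 to 779.9 CPM in rmTBI. Drd2, Adora2a, Penk, Rgs9 and Pde10a, named above, are on that list. All 8 tested oligodendrocyte markers (9 listed) were lower (median -0.80, sums of 633.8 to 668.5 CPM in sham and 408.6 to 455.0 CPM in rmTBI), as were 4 of 5 tested choroid plexus and ependymal markers (8 listed; median -1.87, sums of 41.4 to 43.3 CPM in sham and 12.58 to 12.95 CPM in rmTBI).

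Cortical neuron markers were higher for 7 of 9 tested (10 listed; median 0.50, sums of 849.1 to 918.3 CPM in sham and 1206 to 1265 CPM in rmTBI). Microglial markers had a median of 0.24 with 5 of 6 above 0, interneuron markers 0.18, astrocyte markers -0.01 and endothelial markers -0.06. Gpr37 and Gpr62 thus differed in the same direction as the oligodendrocyte markers. Gpr151, known from the habenula, was also lower, and habenula markers were not among the lists. Chrm1 and Htr1f lay above 0 like most cortical neuron markers, at an unadjusted edgeR p of 0.264 and 0.131, and Htr1f rested mainly on rmTBI library 1. The receptor genes as a set did not share that direction, with 44 above 0 and 46 below. Gabbr1, Gabbr2 and Adgrl2 were among those below (log2 -0.34, -0.28 and -0.58). Adgrf5 and Gpr182, both known from endothelium, were lower at their main peaks (log2 -0.50 and -1.41). The median of the 4 tested endothelial markers (6 listed) was -0.06. Gpr182 rested on 6 to 35 counts a library, and its other coding region lay above 0 (log2 0.90). The part of tissue makeup in any receptor difference was not tested.

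**Figure D4:**
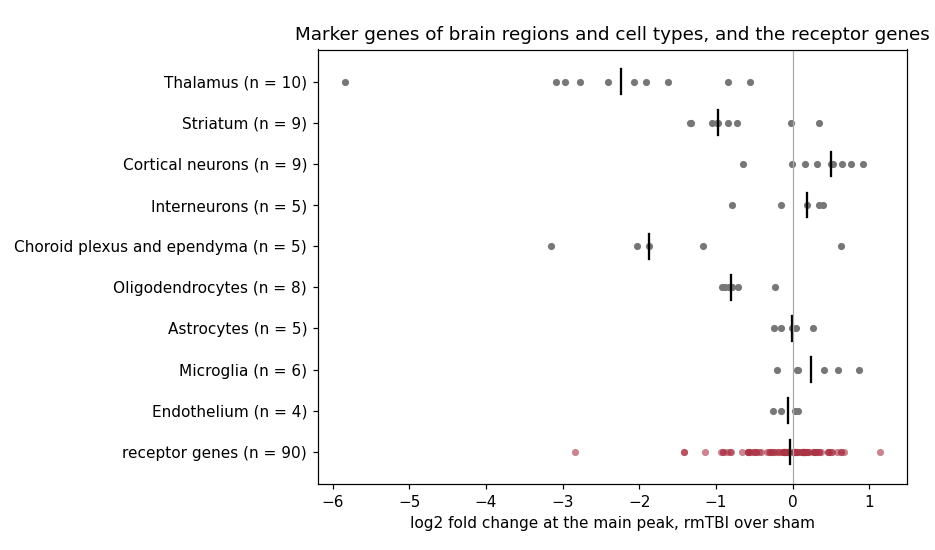
Log2 fold change of rmTBI over sham at the main peak of marker genes of 9 brain regions and cell types (grey, 1 point a gene) and of the 90 receptor genes (red), with black bars at the medians. The medians of thalamic (-2.24), choroid plexus (-1.87), striatal (-0.97) and oligodendrocyte (-0.80) markers lie left of 0, that of cortical neuron markers (0.50) lies right of it, and the receptor median lies at -0.04.

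Levels of different genes were compared only per kilobase of peak, where the length is that of the genomic interval and includes introns in long rows. By this measure the highest main peaks of each family were those of Gabbr1 (245.8 CPM per kilobase), Gpr26 (212.6), Adgrb1 (129.6), Chrm3 (123.8), Grm3 (120.6), Htr2c (50.9), Adrb1 (43.7), Oprd1 (23.0) and Npy2r (13.4). All of these are peaks under 1000 bases. None of these 9 genes passed an unadjusted p of 0.05 between groups. On the same scale Gpr37 stood at 31.8, Gpr62 at 10.9 and Gpr151 at 4.59.

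By the authors' classes, 47.4% of the receptor peaks lay in coding sequence (50.4% of all peaks), 44.8% in 3′ UTRs (39.7%) and 7.85% in 5′ UTRs (6.24%). Short peaks made up more of the receptor rows: 88.4% were under 1000 bases, against 76.2% of all peaks. Of the receptor rows, 72.7% overlapped a row of the other condition's set (67.4% of all), 15.4% were in the sham set alone and 11.9% in the rmTBI set alone.

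Libraries 0 and 1 of a group also differed at receptor peaks. The median log2 ratio of library 1 to library 0 was 0.29 in sham and 0.33 in rmTBI over receptor peaks, against 0.02 and 0.05 over all peaks. Among receptor peaks it was highest in 5′ UTRs (0.48 and 0.42, on 26 tested rows), lower in 3′ UTRs (0.37 and 0.33) and in coding sequence (0.20 and 0.31). Over all peaks the order differed. The medians there were 0.15 and 0.19 in 3′ UTRs, 0.02 and 0.05 in 5′ UTRs and -0.08 and -0.05 in coding sequence. Receptor peaks under 1000 bases had medians of 0.36 and 0.42 and longer ones of -0.10 and -0.18, and over all peaks these were 0.13 and 0.18 for the shorter and -0.28 and -0.29 for the longer. This gap between libraries of 1 group was larger than the median difference between groups, and it entered the error of each test.

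**Figure D5:**
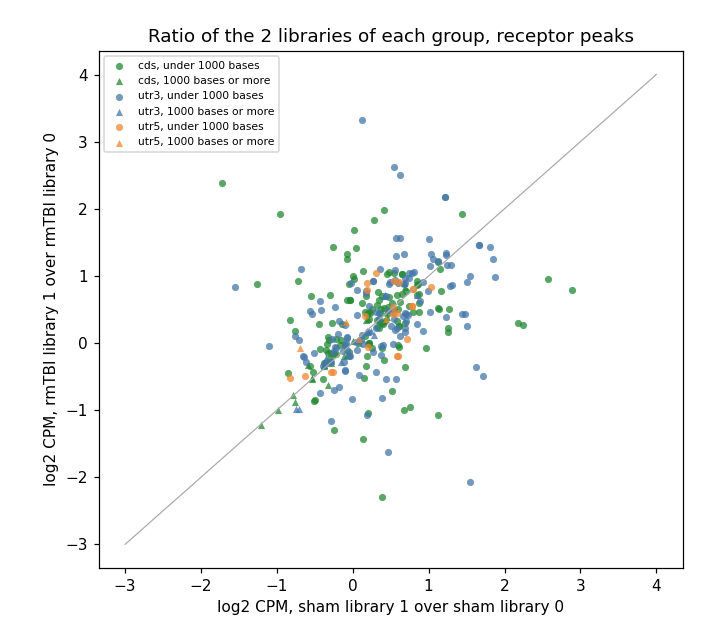
Each point is 1 tested receptor peak, with the log2 ratio of library 1 to library 0 in sham on the x axis and in rmTBI on the y axis, coloured by peak class and with triangles for peaks of 1000 bases or more. Peaks under 1000 bases have medians of 0.36 on the x axis and 0.42 on the y axis, and longer ones of -0.10 and -0.18.

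The authors' deposited table gives another contrast. Its log2 values followed the ratio of rmTBI library 1 to 0 divided by the ratio of sham library 1 to 0 (Pearson r = 0.99 over the receptor peaks, with 0.5 added to each count, as a description of peaks that share libraries), and they are set apart from the values above. Read that way, a deposited fold change compares how far library 1 exceeds library 0 in rmTBI and in sham, and not the level of a peak between the groups. In the authors' deposited values, 5 receptor peaks had a p-value under 0.05, 1.45% of the 344 (1.65% of all peaks), and the deposited adjusted p was 0.998 for each. The authors' deposited list of higher peaks held 1 receptor peak (0.291%, against 0.815% of all peaks), and their list of lower peaks held 4 (1.16%, against 0.43%).

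The higher one was the coding peak of Gpr63, an orphan receptor gene, with a log2 of 4.16 in the authors' deposited table. It rests on 17 and 10 counts in sham libraries 0 and 1 and 2 and 22 in rmTBI libraries 0 and 1. The lower ones in the authors' deposited table included peaks of Adgrf5 (-2.04), Htr1a (-1.93) and Adrb3 (-1.92). For Adrb3 the counts were 5 and 46 in sham and 20 and 51 in rmTBI, so sham library 0 was the low one. The 3′ UTR peak of Htr1a had 11 and 66 counts in sham and 34 and 56 in rmTBI, and that of Adgrf5 had 32 and 86 in sham and 38 and 26 in rmTBI. In the comparison of rmTBI with sham, none of these 5 peaks reached an unadjusted p of 0.05.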

How the data were processed

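The authors deposited 1 table of m6A peaks. It holds whole-number counts at each peak in columns headed by the library names. These were taken here as the authors' raw read counts, made before any normalization. The authors deposited beside them a log2 fold change, p-value and adjusted p-value per peak from a test that is not named. STAR, DESeq2 and the build GRCm39 are named, without roles, in the submitters' processing notes. How peaks were called, and how reads were counted and by which strand, is not stated in the sources used here. Coordinates come from the deposited table and are taken as GRCm38, because 343 of 344 receptor rows lie in the span of their gene in RefSeq GRCm38.p6.

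The 33415 peaks that passed filterByExpr were compared in edgeR 4.0.16 under R 4.3.3 (TMM scaling, quasi-likelihood F-test, group alone in the model, Benjamini-Hochberg adjustment over all peaks tested, calls at an adjusted p under 0.05), with 2 residual degrees of freedom before sharing the spread across peaks. SE is the size of the log2 fold change divided by the square root of F. The fit was tested on simulated counts with large planted changes at well-counted peaks and without the library 0 and 1 pattern. That simulation cannot tell how the fit does at low counts, at small changes or under that pattern. DESeq2 1.42.0, other scaling and filters, the label number as a block, each condition's rows and each library left out were the alternatives.

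Genes were named by 6 rules: any called by edgeR, the 8 smallest p in each direction among genes whose groups do not overlap, the highest CPM per kilobase and the most rows in each family, those in the deposited lists, and all transmitter receptor families. Others are marked in the text. A few genes under these rules are counted but not reported by name here. The members, the lists and these rules were chosen with earlier results of these data known. A further deposited list, of all differing peaks, is cut short and was not used.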

Additional observations from a re-analysis of the deposited data

How the results depend on the processing

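The labels share the numbers 0 and 1 between groups but do not say that they pair libraries. Deviations from the group means of same-numbered libraries correlated (Pearson r = 0.60 over 33415 peaks, 0.51 over the receptor peaks), which with 2 pairs does not settle a pairing. With the number as a replicate block, edgeR called 60 receptor peaks, 22 higher and 38 lower (17.9%, against 10.6% of all peaks). In that fit 94 reached an unadjusted p under 0.05, 50 of them lower. For this count and the unadjusted counts that follow, shares over all peaks are not given here. Such counts cannot say whether receptor peaks stand out from other peaks. Gabbr1, Gpr26 and Grm5, whose groups overlapped at the main peak, were among the genes with a called peak. Called receptor peaks were 0 in the model of group alone and 1 with DESeq2 (0.298%, against 0.416% of all peaks). Peaks at an unadjusted p under 0.05 were 17: 10 with DESeq2, 6 on the rows of the rmTBI set and 14 to 22 with a library left out. The lower ones among them were 16: 9, 6 and 4 to 18 under the same alternatives. The median log2 of the receptor genes was -0.0368: -0.0543 with no filter on low counts, 0.0184 with at least 10 counts in every library, 0.0242 on the sham rows, 0.0158 on the rmTBI rows, -0.0541 without the non-classical genes, -0.00942 with each gene's median over its peaks, and -0.162 to 0.0684 with a library left out. Peaks lower in both rmTBI libraries were 59, with 33 in the sham rows and 30 in the rmTBI rows, and 90 to 136 with a library left out, where by construction fewer libraries must separate. The cause of the other shifts was not tested. Of 344 values of 35 named genes under alternatives, 305 had the same sign and were not called, 19 were called only under the alternative, and 20 in 11 genes turned sign. Peaks such as those of Gpr151, Adra2b and Gpr182 rest on few counts. The size of difference detectable at such levels was not tested.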
